A study of Rattus norvegicus with 2 samples.

Results

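The genes described here are the secreted Wnt, bone morphogenetic protein (BMP) and growth differentiation factor (GDF) ligands, the frizzled receptors and the BMP receptors on a rat whole-genome expression array. A rule picks them by the name that the array design gives each probe and uses no measured value, although these families were taken up with earlier results of the same arrays known. It found 47 of the 26334 gene names on the array: 18 Wnt genes, 9 frizzled genes (Fzd), 9 Bmp genes, 8 Gdf genes and 3 Bmpr genes. These are 35 ligand genes and 12 receptor genes, read by 53 probes on 71 spots, of 30367 probes and 42877 non-control spots. The name Bmp1 belongs to a secreted protease that releases BMPs from an inhibitor, and it is counted with the Bmp names as the rule has it.

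The study asked how gene expression in the hypothalamus differs between the sexes of the Wistar Kyoto (WKY) rat, an inbred strain with normal blood pressure. One group was 5 males and the other 5 females, all of 9 weeks of age, freely fed and not otherwise treated, killed by ether and decapitation. Whole hypothalami were dissected by 1 person, 100 ng of RNA per rat went into a pool for each sex, and 150 ng of each pool was labelled with the dye Cy3 and hybridised to 1 Agilent array. Each pool is thus a single measurement, called the male array and the female array below: differences between rats are averaged away, no difference below has a replicate check, no p-value is given, and sex cannot be told apart from the pool or the array.

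Wnt proteins are lipid-modified secreted signals that bind frizzled receptors together with a co-receptor and either stabilise β-catenin or act through β-catenin-independent branches. BMPs and GDFs belong to the TGF-β family and bind pairs of type I and type II receptors that phosphorylate Smad transcription factors. Both families pattern the embryonic neural tube, and the developing hypothalamus lies within their reach. In the adult brain several of the ligands are made outside neurons, in the meninges, choroid plexus and vessels among other places.

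A level below is the log2 of the processed spot intensity minus the log2 of the 75th percentile of that array's non-control spots, which was 3769 for the male array and 2943 for the female array. A level of 0 is therefore that of a bright spot, and −7 lies near the limit of measurement: the lowest level called well above background was −7.97 for the male array and −7.72 for the female array. Levels of different probes are not set against each other, because probes differ in how well they bind. No spot was saturated. A difference is always female minus male, and a technical SD beside it is the scatter of such differences among spots that repeat 1 probe at a similar level on these arrays. That SD leaves out labelling, hybridisation and the rats. It was 0.12 for spots in 17 blocks of slide rows where repeated spots often disagreed and 0.082 in the other rows, over 1312 repeated probes, and 25 of the 71 spots described here lie in those blocks. A gene with a spot in those blocks is said to have a spot in the uneven rows, but this is not repeated at every value. Of the members well above background on both arrays, 16 have such a spot. The Wnt genes among them are Wnt3, Wnt5b, Wnt7b, Wnt9a, Wnt9b, Wnt10a and Wnt11. The others are Fzd3, Fzd6, Fzd8, Bmp6, Gdf3, Gdf6, Gdf9, Gdf10 and Bmpr1b. Outside the members, Avp, Pmch, Fshb and Msx1 have one too, with no mention beside their values.

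The tissue label fitted its markers on both arrays. All 10 hypothalamic marker genes were well above background, and their summed linear level was 171 on the male and 172 on the female array. The level of Pmch, the precursor of melanin-concentrating hormone, was 6.32 on the male and 6.42 on the female array. That of Oxt, the oxytocin precursor, was 5.21 and 5.34, and that of Avp, the vasopressin precursor, 5.54 and 5.27. Together Pmch, Oxt and Avp make up most of both sums. Of the 10 genes, 6 were higher on the female array and 4 on the male array, with differences from −0.30 to 0.41. Otp, at −7.24 and −7.34, lay near the limit of measurement. In a bulk extract such as this, fewer cells of a type and less RNA per cell cannot be told apart.

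The probes that carried the main results are printed here so that a reader can see what was measured. Each probe is 60 bases long, and the positions are those the array design gives on rat build rn4, with no statement of exon or UTR. The letters follow the array's own probe sequences, in lower case throughout. For Wnt6, Wnt10a, Bmp7, Wnt16, Fzd8 and Fzd10 only the first 30 bases are shown, and the Bmp6 and Bmp2 probes are shown whole.
Wnt6, chr9:74117575-74117634: tcctcagaattactggggtggatgggtgag
Wnt10a, chr9:74137306-74137365: aagaaaacgcagaaatgggcgtcattaggc
Wnt16, chr4:48620252-48620311: tttggatagtttggggaatatacgttggca
Bmp7, chr3:163723705-163723764: ctgaaggaaaaccaagcagaagtccctgta
Bmp6, chr17:32380203-32380262: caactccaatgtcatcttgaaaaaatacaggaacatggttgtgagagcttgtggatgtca
Bmp2, chr3:121381127-121381186: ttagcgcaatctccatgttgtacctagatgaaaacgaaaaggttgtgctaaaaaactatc
Fzd8, chr17:65971481-65971540: caggcagatgccttaaataaacaataaatg
Fzd10, chr12:29163666-29163725: ggcgatgcctgcctctgtatatctgtaata
The first 6 are ligands, with the 5 largest differences among genes measured on both arrays, and Wnt10a. Wnt10a is the gene next to Wnt6 in the RefSeq gene order. The last 2 are the frizzled receptors with the largest differences among those measured on both arrays. Over all 53 probes the GC content ran from 35% to 73.3%.

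Of the 47 genes, 38 were well above background on both arrays, or 80.9%, against 78.5% of all 26328 genes with a usable spot. By family these were 16 of 18 Wnt genes, 7 of 9 frizzled genes, 5 of 9 Bmp genes, 7 of 8 Gdf genes and all 3 Bmpr genes. The Bmp ligands were thus the least often detected. Bmp5, Bmp10, Bmp15, Gdf2, Wnt8b and Fzd4 were not well above background on either array. Bmp10 and Gdf2 are known as circulating ligands of vessel walls made in heart and liver, and Bmp15 as a signal of the oocyte.

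The other 3 genes passed on 1 array. For these a fold is taken against the lowest level called well above background on the dimmer array or the gene's own level there, whichever is higher. Only in the first case is it a bound. Wnt8a was well above background on the male array at a level of −6.77, where the female array gave −8.36, which is at least 1.94-fold higher on the male array. Fzd5 passed on the female array at a level of −7.29, where the male array gave −7.70. Its 1.33-fold is the ratio of these levels and not a bound, a difference of 0.41 with a technical SD of 0.27. Both Wnt8a and Fzd5 rest on a single spot in the uneven rows. Bmp3 passed on the male array alone, but its level was −7.57 on each array, and no fold is given.

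**Figure D1:**
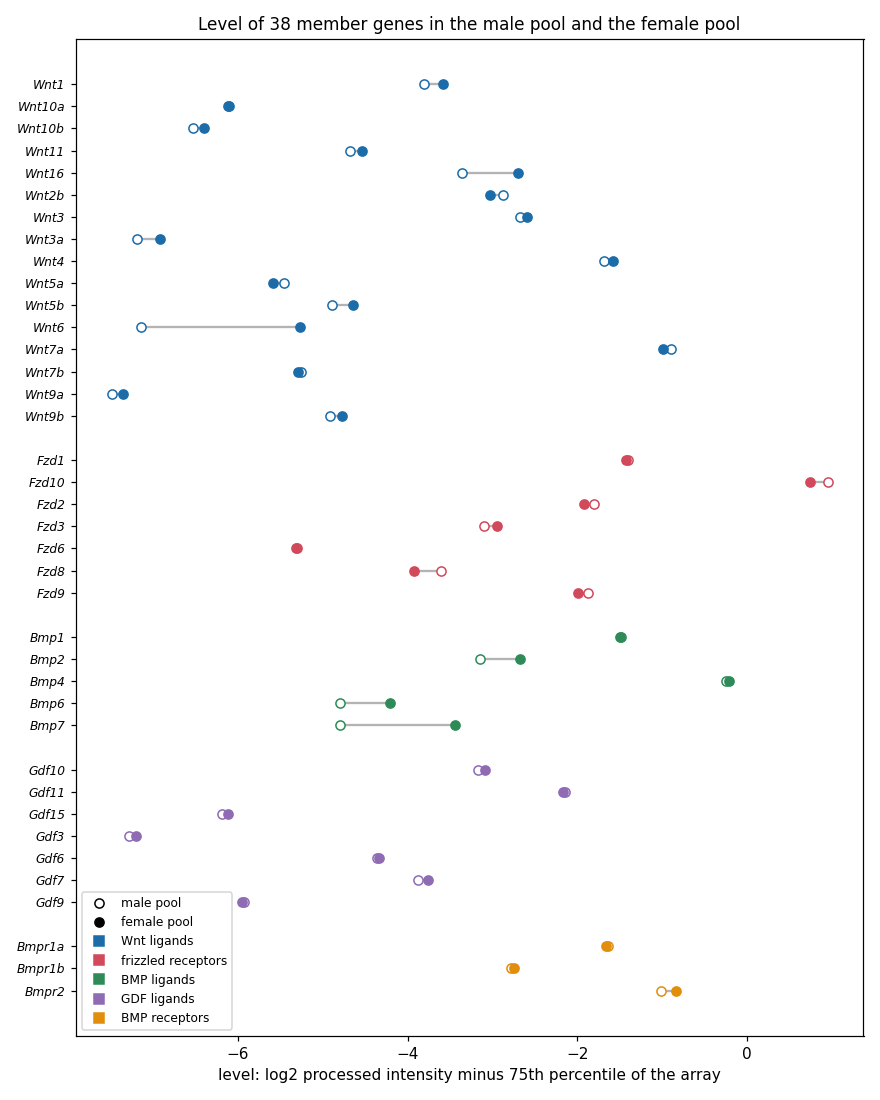
Level (log2 of processed intensity relative to the array's 75th percentile) of the member genes in the male and the female array, by family. Open points are the male array and filled points the female array, with no replicate error. Most pairs of points nearly coincide, and the widest female-above-male gaps among genes measured on both arrays are those of Wnt6, at −7.14 and −5.27, and Bmp7, at −4.80 and −3.44.

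The ligand genes Wnt6, Bmp7, Wnt16 and Bmp6 were at least 1.5-fold higher on the female array. That is 4 of 38 measured members, beside 1.56% of the 20664 genes measured on both arrays. Wnt6 and Bmp7 were at least 2-fold higher, beside 0.508% of all genes. None of the 38 was at least 1.5-fold higher on the male array, beside 0.842% of all genes, and none 2-fold higher, beside 0.339%. Wnt8a, which passed on the male array alone, is not among the 38. Among the 22 measured members with no spot in the uneven rows, 12 were higher on the female array, beside 49.3% of the 12875 such genes on the arrays. Of those 22, 3 were at least 1.5-fold higher on the female array, beside 1.12%, and 2 at least 2-fold higher, beside 0.311%. None of them was 1.5-fold or 2-fold higher on the male array, beside 0.419% and 0.101%. With so few members, these counts describe the 2 arrays and carry no error of their own.

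Wnt6, a ligand of epithelia and of the tissues that border them, gave a processed intensity of 26.7 on the male and 76.1 on the female array. Its level was −7.14 on the male and −5.27 on the female array, a difference of 1.86 or 3.64-fold with a technical SD of 0.20. Of the 20664 genes measured, 13 had a larger difference towards the female array. The male value lay close to the limit of measurement, so the size of the ratio rests on a dim spot. With normexp, a model-based background correction, it was 1.02 once 2 spots of high local background were left out, and −1.65 with all spots, where the median of all genes was −0.55. The 21 spots around it on the slide had a median difference of 0.089 and ran from −0.14 to 0.46, so the Wnt6 spot stood apart from its surroundings. Spots around it read other genes, so they cannot show an error of 1 spot alone. A repeated Fzd6 spot at −0.64, from a probe with a mean of −0.093, had spots around it from −0.27 to 0.27.

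Bmp7 encodes a BMP of kidney, eye and brain coverings that also acts in fat tissue. Its intensity was 135 on the male and 271 on the female array, and its level −4.80 and −3.44. The difference was 1.36, or 2.57-fold, with a technical SD of 0.085. It ranked at position 45 of all genes towards the female array. The 21 spots around it had a median difference of 0.022 and ran from −0.24 to 0.45, so this spot too stood apart. Normexp gave 1.09 without the 2 spots of high local background and −0.63 with all spots.

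Wnt16, a Wnt ligand best known from bone and blood stem cell development, had a level of −3.36 on the male and −2.70 on the female array. The difference was 0.66, or 1.58-fold, with a technical SD of 0.085, and the surrounding spots had a median difference of −0.011. Bmp6, an iron-regulating BMP made by endothelium among other cells, had a level of −4.80 on the male and −4.20 on the female array, a difference of 0.60 or 1.51-fold. Its technical SD was 0.13, that of spots in the uneven rows at its mean level, and the value sits just above the 1.5-fold line. Below a level of −4.52 the technical SD in those rows was 0.27, and the male level lies below that. Under spike-in scaling it was 0.53 and under quantile normalisation 0.55, both below that line. Normexp gave 0.60 for Wnt16 and 0.55 for Bmp6 without the 2 spots of high local background, and −0.34 and −1.29 with all spots.

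Bmp2, a BMP of heart, bone and neural crest, came next without reaching 1.5-fold. Its level was −3.14 on the male and −2.68 on the female array, a difference of 0.46 or 1.38-fold with a technical SD of 0.059. Spots around it were uneven, from −0.44 to 1.90, although it does not lie in a block counted as uneven. Among members measured on both arrays, the 5 largest differences were therefore all of ligands and all towards the female array. Of these, 3 were Bmp genes and 2 Wnt genes. Wnt8a, not well above background on the female array, is left out here.

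Markers of the meninges moved with these ligands, in a list that was drawn up with earlier results of these arrays known and is no independent evidence. All 16 of the 16 meningeal fibroblast markers were higher on the female array, 11 of them at least 1.5-fold, with a median difference of 0.85 and a range of 0.086 to 2.82. Their summed linear level was 4.93 on the male and 7.66 on the female array. None of the 16 was below background. The largest were Cdh1 at 2.82, Aldh1a2 at 1.92, Slc47a1 at 1.39 and Slc22a6 at 1.34. Cdh1 had a male level of −7.18, close to the limit of measurement, so the size of its ratio rests on a dim spot. Aldh1a2, Slc47a1 and Slc22a6 each rest on 1 spot in the uneven rows, with male levels of −5.73, −5.34 and −2.50. In all, 9 of the 16 genes have a spot in the uneven rows. Of the other 7, 5 were at least 1.5-fold higher on the female array. The list median was 0.78 under normexp without the 2 spots of high local background and 0.031 under normexp with all spots. Of 10 choroid plexus markers, 7 were higher on the female array, with a median of 0.16 and a summed level of 1.75 on the male and 2.86 on the female array. That sum is mostly Ttr, the transthyretin gene, with a level of 0.11 on the male and 1.09 on the female array, a difference of 0.98. Kcnj13 differed by 2.22, and both rest on a single spot in the uneven rows. The other 8 choroid plexus genes lay between −0.17 and 0.28, and of the 4 with no spot in those rows, 2 were higher on the female array and 0 reached 1.5-fold. The part of these tissues in the ligand differences was not tested.

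Other marker lists moved less or the other way. The 7 measured blood markers were all lower on the female array, with a median of −0.46 and a summed level of 13.3 on the male and 10.7 on the female array. That sum is mostly Hbb, with a level of 3.63 on the male and 3.32 on the female array. Of 8 anterior pituitary markers, 6 were measured on both arrays. Of these 6, with a median of −0.37, 5 were lower on the female array. Their differences ran from −2.05 for Tshb, the β subunit of thyrotropin, to 0.18 for Fshb, with Lhb at −0.022. Prl was well above background on the female array alone, and Gh1 on neither array. The pituitary median was −1.04 without the uneven rows, where 2 genes were left, −0.15 with no filter on dim probes and −0.18 under normexp without the 2 spots of high local background. Endothelial and mural markers had a median of −0.035, astrocyte markers −0.069, neuronal markers 0.081 and oligodendrocyte markers −0.075. The 6 markers of ependyma and tanycytes centred on 0.12. The part of these cell types in any member's difference was not tested either.

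**Figure D2:**
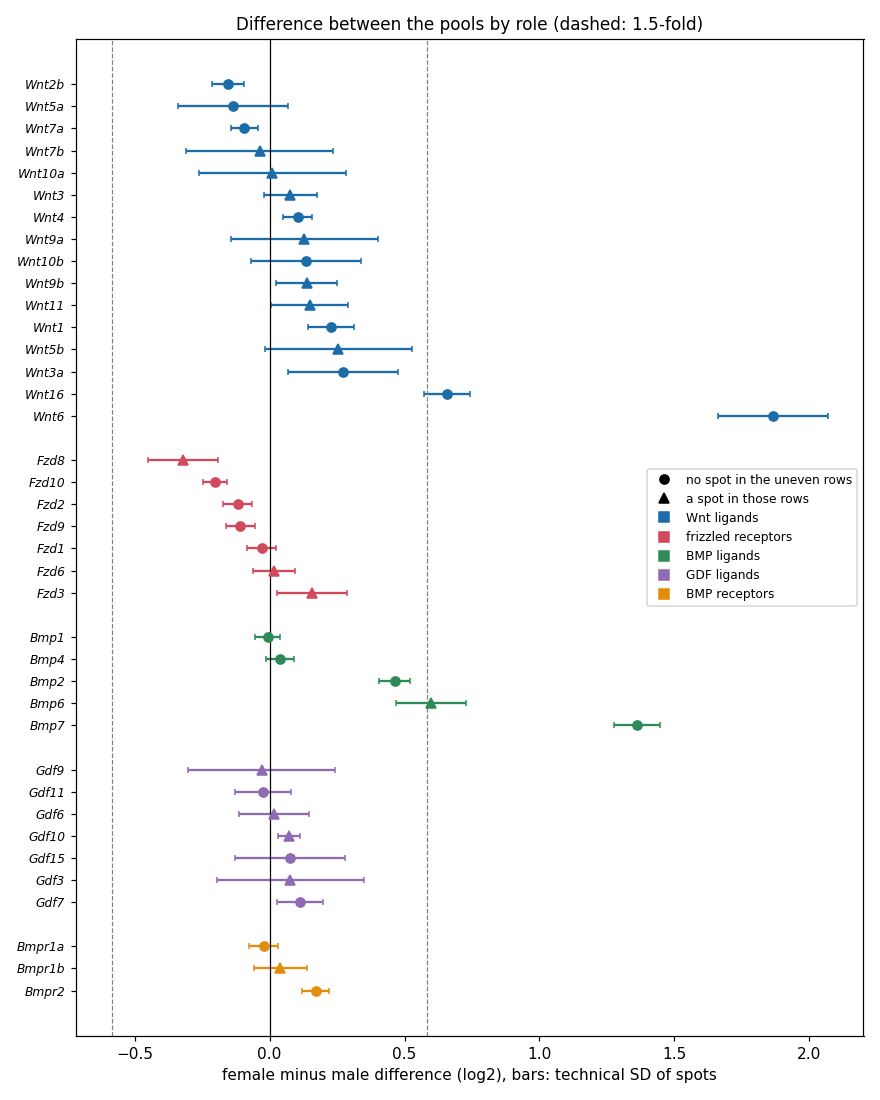
Female minus male difference (log2) of each member gene measured on both arrays, by family, with bars of 1 technical SD from repeated spots, which leave out labelling, hybridisation and the rats; triangles mark genes with a spot in the uneven rows and dashed lines 1.5-fold. Wnt6 at 1.86 and Bmp7 at 1.36 lie far to the female side, while 5 of the 7 frizzled genes lie below 0.

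The remaining Wnt ligands differed little. Of the 16 measured Wnt genes, 12 were higher on the female array and 4 on the male array, with a median difference of 0.13, where over all genes the median was 0.00012 and 50% lay above 0. Wnt1, the midbrain organiser ligand, had a level of −3.81 on the male and −3.58 on the female array, a difference of 0.23 with a technical SD of 0.085. Wnt3a, at −7.19 and −6.92, differed by 0.27 with a technical SD of 0.20. Wnt5b, at −4.90 and −4.64, differed by 0.25 with a technical SD of 0.27. So of these 3, Wnt1 alone passed 2 technical SD.

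A middle group of Wnt genes lay within 2 technical SD of 0. Wnt11 differed by 0.15, Wnt9b by 0.14, Wnt10b by 0.13, Wnt9a by 0.13 and Wnt4 by 0.11, and Wnt3 by 0.076. Wnt4, known from the female reproductive tract and from synapse formation, had a level of −1.68 on the male and −1.58 on the female array. Wnt10a had a level of −6.11 on the male and −6.10 on the female array, and Wnt7b −5.25 and −5.29. Neither of these pairs of values was separated by its technical SD of 0.27.

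Of the Wnt genes measured on both arrays, those on the male side were Wnt7a, Wnt7b, Wnt5a and Wnt2b. Wnt7a, a signal from neural cells to brain vessels, had a level of −0.90 on the male and −0.99 on the female array, a difference of −0.094 with a technical SD of 0.050. Wnt5a, the main ligand of β-catenin-independent signalling, differed by −0.13 with a technical SD of 0.20. Wnt2b had a level of −2.87 on the male and −3.03 on the female array, a difference of −0.15 with a technical SD of 0.059. Of these 4, Wnt2b was the one past 2 technical SD.

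Wnt genes often lie beside each other in the genome, and such neighbours can be set side by side in these 2 pools. Wnt6 and Wnt10a adjoin each other and differed by 1.86 and 0.0096. Wnt3a and Wnt9a differed by 0.27 and 0.13, Wnt9b and Wnt3 by 0.14 and 0.076, and Wnt10b and Wnt1 by 0.13 and 0.23. Within the last 3 pairs both genes were slightly higher on the female array, with values under 0.3, whereas in the first pair Wnt6 alone stood out. The Wnt10a spot lies in the uneven rows.

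The promoters of this neighbouring pair are shown because the 2 genes are adjacent and Wnt6 alone passed 1.5-fold. Each is the 250 bases before the start given by RefSeq on build GRCr8, on the plus strand, written 5′ to 3′. Capitals mark GGCGCC, a motif that Smad proteins can bind and that reads the same on both strands.
Wnt6, chr9:83778302-83778551: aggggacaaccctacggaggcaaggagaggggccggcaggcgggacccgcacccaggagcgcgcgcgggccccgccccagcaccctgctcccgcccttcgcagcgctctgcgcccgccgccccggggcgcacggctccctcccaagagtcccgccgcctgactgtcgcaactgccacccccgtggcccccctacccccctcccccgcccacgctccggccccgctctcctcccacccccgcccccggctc
Wnt10a, chr9:83798344-83798593: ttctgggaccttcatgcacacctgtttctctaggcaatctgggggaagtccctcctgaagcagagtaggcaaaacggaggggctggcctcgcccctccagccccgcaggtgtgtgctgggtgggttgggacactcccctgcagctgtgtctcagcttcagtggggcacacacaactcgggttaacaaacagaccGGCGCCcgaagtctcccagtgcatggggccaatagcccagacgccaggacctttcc
Over windows of 250 bases before to 50 after the start, RefSeq had 36 promoters for 35 of the members. GGCGCC was in 10 of the 36, or 27.8%, and in 11% of all 33469 promoters, while the mean GC content was 63.5% for the member promoters and 52.7% for all. CTTTGAT, the letters of a TCF/LEF motif, or ATCAAAG on the other strand, was in 1 of 36, that of Bmpr1a, and in 3.63% of all promoters. The 2 motifs do not overlap in their letters. These matches describe letters in a window and not binding.

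Most measured frizzled receptors were slightly lower on the female array, where most ligands were higher. Of 7 measured frizzled genes, 5 were lower and 2, or 28.6%, higher on the female array, beside 50% of all genes higher there. The median difference was −0.11, with a range of −0.32 to 0.16. With so few genes, this count describes the 2 arrays only. None reached 1.5-fold in either direction. Fzd8, a receptor studied in early brain development, had an intensity of 310 on the male and 194 on the female array. Its level was −3.61 and −3.93, a difference of −0.32 with a technical SD of 0.13. The 15 spots around it ran from −1.88 to 0.25 and it lies in the uneven rows, so its neighbourhood on the slide was itself disturbed.

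With all measured genes split by mean level into 4 groups of equal size, Fzd10 was the only member in the brightest group. Its intensity was 7283 on the male and 4940 on the female array, and its level 0.95 and 0.75. The difference was −0.20 with a technical SD of 0.044, from a spot outside the uneven rows. Among the genes of that group the median difference was −0.021 and 40.5% lay above 0, so bright genes as a whole leaned slightly to the male array.

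Fzd2, Fzd9 and Fzd1 were on the male side by small amounts. They were in the level group next to the brightest, where the median of all genes was −0.0059 and 48.4% lay above 0. Fzd2 had a level of −1.81 on the male and −1.93 on the female array, a difference of −0.12, and Fzd9 had −1.88 and −1.99, a difference of −0.11. Each has a technical SD of 0.054, so both were just past 2 technical SD. Fzd1, at −1.40 and −1.43, differed by −0.029, within its technical SD. Fzd3, a receptor required for axon guidance, was on the female side at −3.10 and −2.94, a difference of 0.16 with a technical SD of 0.13.

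Fzd6 is read by a pair of probes, one of them spotted 10 times, which shows how far single spots can stray. The 10 spots gave differences from −0.64 to 0.41, with a mean of −0.093 and an SD of 0.29, and the other probe gave 0.13. The gene value was 0.018. The probe repeated on the array is shown by its first 30 bases and the other whole.
Fzd6, chr7:74593649-74593708: gaatgctacagacacattgtgttgtatctt
Fzd6, chr7:74592186-74592245: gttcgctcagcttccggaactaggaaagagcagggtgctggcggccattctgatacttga
Single dim spots, such as those of most Wnt genes, have no such repeats, so a difference of 0.3 or less there is of the size that repeated spots of 1 probe showed. Gdf10, a BMP-related ligand with 10 spots of a brighter probe, ran from −0.017 to 0.20, with a mean of 0.072 and an SD of 0.073.

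**Figure D3:**
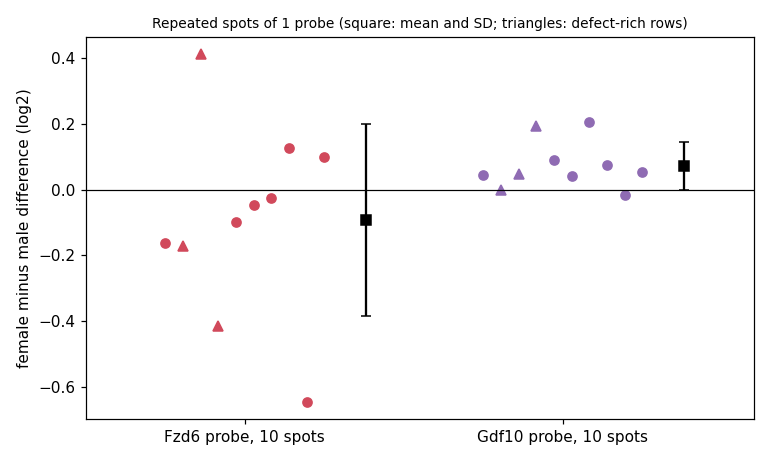
Female minus male difference (log2) of each spot of the 2 member probes that are spotted 10 times, for Fzd6 and Gdf10. The dim Fzd6 probe spreads from −0.64 to 0.41 and the Gdf10 probe from −0.017 to 0.20.

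The other Bmp names and the Gdf ligands showed little difference. Bmp4, a BMP of the ventral forebrain and pituitary, had a level of −0.25 on the male and −0.21 on the female array, a difference of 0.040 with a technical SD of 0.052. The protease gene Bmp1 differed by −0.0074 with a technical SD of 0.048. Leaving Bmp1 aside, the measured Bmp ligands were Bmp2, Bmp4, Bmp6 and Bmp7, and each was higher on the female array by 0.040 to 1.36.

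None of the 7 measured Gdf genes passed 2 technical SD. On the female array 5 were the higher, and the family had a median of 0.072 and a range of −0.030 to 0.11. The widest was Gdf7, a roof plate ligand, at −3.88 on the male and −3.76 on the female array, a difference of 0.11 with a technical SD of 0.085. Gdf15, a stress signal that acts on the hindbrain, was at −6.19 and −6.11. Gdf11, related to myostatin, differed by −0.026 and Gdf9, known from the oocyte, by −0.030. The family stayed within the scatter of repeated spots.

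The BMP receptors were measured on both arrays without large differences. Bmpr2, the type II receptor, had a level of −1.01 on the male and −0.84 on the female array, a difference of 0.17 with a technical SD of 0.050. Of the type I receptors, Bmpr1b had −2.78 and −2.74, a difference of 0.039, and Bmpr1a differed by −0.021 with a technical SD of 0.054. Bmpr2 was the one of the 3 past 2 technical SD.

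Set side by side, 21 of 28 measured ligand genes, or 75%, and 4 of 10 measured receptor genes, or 40%, were higher on the female array, where 50% of all genes were. The median difference was 0.091 for ligands, with a range of −0.15 to 1.86, and −0.025 for receptors, with a range of −0.32 to 0.17. The groups overlapped widely, and 13 of the 28 ligands but 1 of the 10 receptors were in the dimmest of the 4 level groups. In that group 54.7% of genes were above 0, and 3.81% were at least 1.5-fold higher on the female array and 2.81% on the male array. The part of brightness in the gap between ligands and receptors was not tested. In total 12 of the 38 members, 7 ligands and 5 receptors, were past 2 technical SD, or 31.6%, against 27.1% of all genes, so members as a whole were close to the background by that measure.

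**Figure D4:**
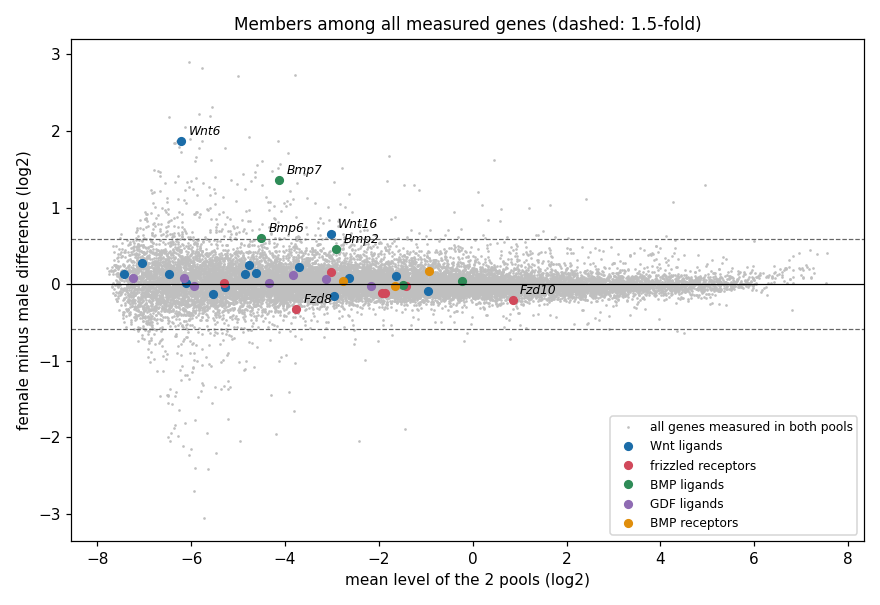
Female minus male difference (log2) of all genes measured on both arrays against their mean level (log2 relative to the 75th percentile), with the member genes marked. Most members lie in the cloud of all genes, whose spread widens at low levels, while Wnt6, at 1.86, and Bmp7, at 1.36, lie among the few points far above 0. Dashed lines mark 1.5-fold.

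Some genes have probes that disagree in brightness by far more than the pools do, which limits any statement on level. The Gdf11 probes lie 3261 bases apart and differed 44.3-fold on the male array and 40.5-fold on the female array, while their differences between pools were 0.039 and −0.090. The Wnt9b probes lie 3554 bases apart and differed 35.9-fold and 30.6-fold, with differences between pools of 0.023 and 0.25. In each pair below the first probe is shown whole and the other by its first 30 bases.
Gdf11, chr7:2186265-2186324: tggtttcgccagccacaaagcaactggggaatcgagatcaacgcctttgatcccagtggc
Gdf11, chr7:2183004-2183063: tttcctccaaagtcaaatgcctcttgatct
Wnt9b, chr10:92883825-92883884: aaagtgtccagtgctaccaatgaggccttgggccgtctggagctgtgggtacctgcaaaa
Wnt9b, chr10:92880271-92880330: tattctggcaccctccgtttgtctggtaga
For Wnt6, Wnt16 and the Bmp genes other than Bmp1 there is 1 probe on 1 spot, as for 40 of the 47 genes, so no second probe can be set beside the value.

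The partners of these ligands outside the cell were next in line. Of 16 measured genes for Wnt secretion and extracellular modulators, 8 were higher on each array, with a median of −0.016, which turned to 0.052 without the uneven rows or without the dim filter and to 0.041 under normexp without the 2 spots of high local background. Trabd2b, a protease that cuts Wnt proteins, had a level of −7.41 on the male and −6.50 on the female array, a difference of 0.91 with a technical SD of 0.20. Sfrp1, a secreted frizzled-related inhibitor, had −5.84 and −5.06, a difference of 0.78 with a technical SD of 0.20. Notum, an esterase that removes the Wnt lipid, had −4.11 and −5.19, a difference of −1.08 with a technical SD of 0.27 and a spot in the uneven rows. These 3 inhibitors were the only genes of the list past 1.5-fold, and they did not share a direction. Sost differed by 0.46, with a technical SD of 0.27 and a spot in the uneven rows. The R-spondin genes Rspo2 and Rspo3, whose products strengthen Wnt signals, differed by 0.39 and 0.36, with technical SDs of 0.14 and 0.085.

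Among 10 measured Wnt co-receptors and other Wnt receptors, 7 were higher on the female array, with a median of 0.049 and none past 1.5-fold. The widest were Ror1 at 0.30, Gpc3 at 0.27, Ryk at 0.27 and Lgr5 at −0.19. Their technical SDs were 0.27 for Ror1, with a spot in the uneven rows, 0.054 for Gpc3, 0.20 for Ryk and 0.14 for Lgr5. Of 17 measured BMP antagonists and extracellular modulators, 13 were higher on the female array. Their median was 0.060, which turned to −0.0068 under spike-in scaling. Fst, the activin and BMP binder follistatin, differed by 0.45 with a technical SD of 0.13. Nog, the BMP antagonist noggin, differed by −0.32 with one of 0.085. Cer1 differed by −0.31 with a technical SD of 0.27, and Fstl1 by 0.28 with one of 0.14. Fst and Cer1 each have a spot in the uneven rows. No antagonist passed 1.5-fold.

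Inside the cell the pathway genes lay close to 0. Of 24 measured intracellular Wnt pathway genes, 16 were higher on the female array with a median of 0.047. The widest, Gsk3b, differed by 0.24 with a technical SD of 0.030, over 10 spots of which 3 lie in the uneven rows. Of 12 Wnt feedback and target genes, 8 were higher on the female array with a median of 0.037. Axin2, a feedback inhibitor used as a reporter of β-catenin signalling, had a level of −3.42 on the male and −2.95 on the female array, a difference of 0.47 with a technical SD of 0.13 and a spot in the uneven rows. Nkd1, another feedback inhibitor, went the other way at −0.27 with a technical SD of 0.044. Lef1 differed by 0.24 with a technical SD of 0.049. None of these genes passed 1.5-fold. Under spike-in scaling, which moved the median of all genes to −0.067, the medians of the co-receptor, intracellular and feedback lists turned to −0.019, −0.020 and −0.030.

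On the BMP side, 4 of 9 measured Smad list genes were higher on the female array, with a median of −0.025 that turned to 0.029 without the uneven rows, 0.0077 with the brightest probe and 0.019 under normexp without the 2 spots of high local background. Smurf2, a ubiquitin ligase, was the widest at 0.24 with a technical SD of 0.035. Of 8 other receptors and co-receptors, 3 were higher on the female array with a median of −0.048 and a range of −0.16 to 0.15. Of 9 BMP target genes, 8 were lower on the female array, with a median of −0.086 and a range of −0.16 to 0.15. Under normexp without the 2 spots of high local background, the target median was 0.045 and that of the other receptors 0.054, about at the median of all genes there, 0.050. Msx1 differed by −0.16 with a technical SD of 0.032 and Id3 by −0.15 with one of 0.20. Id4 alone was above 0, at 0.15 with a technical SD of 0.052. Of the 9 targets, 2 were past 2 technical SD, or 22.2%, beside 27.1% of all genes. These were Msx1 and Id4, in opposite directions. The ligand genes Bmp2, Bmp6 and Bmp7 were thus higher on the female array under the main setting. Most of the listed targets were slightly lower there, but of these only Msx1 by more than 2 technical SD. Neither was tested. Of 10 related TGF-β family ligands, 7 were higher on the female array, with a median of 0.071. Lefty1 was past 1.5-fold at 0.62, with a technical SD of 0.27 and a spot in the uneven rows.

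**Figure D5:**
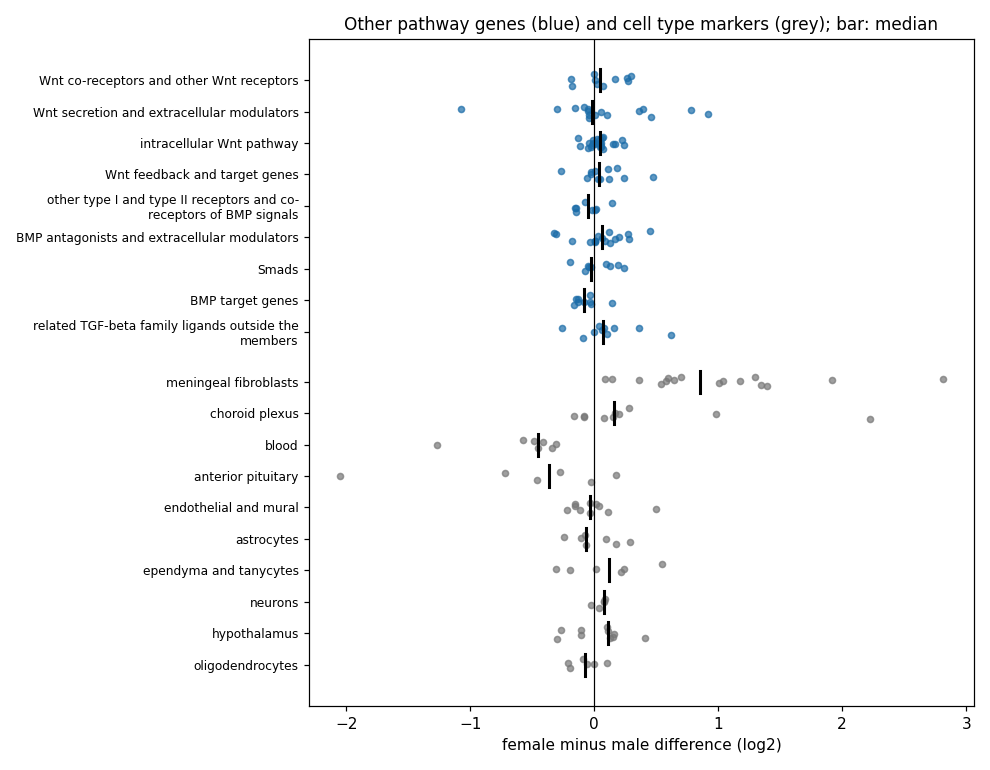
Female minus male difference (log2) of the measured genes of each pathway and cell type marker list, 1 point per gene, with the list median marked. All 16 points of the meningeal list, with a median of 0.85, lie above 0, and the pathway lists centre near 0.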

How the data were processed

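Each array file holds the scanner's intensity per spot: per the file headers, the deposited processed intensity was background-subtracted and spatially detrended by Agilent Feature Extraction 10.7.3.1 (version 9.1 per the submitters' processing notes) on a design with rn4 positions. The deposited flags (other values, 0 or 1 per spot) mark spots well above background, saturated or outlying. The deposited value table of 36348 spots is a linear signal: the authors divided each array's processed intensity by a constant. Here levels were taken as the log2 of the deposited processed intensity minus that of the 75th percentile, without control spots and outlier spots, averaged per probe and then per gene name, with Python 3.11.15, numpy 2.4.6 and pandas 2.3.3. A probe entered where it was well above background. Both arrays lie on 1 slide and scan. With 1 array per pool no test was run, and 1 array per pool limits the precision. The accession of 52 of the 53 probes matched the RefSeq gene table (GRCr8), each with the same symbol.

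Uneven rows are blocks of 10 slide rows in which over 2% of repeated spots lay more than 4 robust SD from their probe's median. The technical SD of a single spot comes from repeated spots of similar level, set in 10 level groups, inside or outside those rows. Every measured member could be named, with the 4 widest genes of each pathway list and those past 1.5-fold. The members were matched by gene name, but the gene families, the pathway lists and the marker lists were all chosen with earlier results of these data known. Alternatives changed the scaling, background correction (normexp of limma 3.58.1 in R 4.3.3, offset 50), filters, spots, probe summary and gene names, and 1, normexp without 2 spots of high local background, was added after seeing the data. The scripts were tested on simulated data.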

Additional observations from a re-analysis of the deposited data

How the results depend on the processing

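Over 11 alternatives (all but normexp on every spot), 380 of 405 member differences moved by less than their technical SD. Several of these settings could hardly move a member. The deposited value table is the same intensity rescaled, no member spot was an outlier, and 40 of the 47 genes have 1 spot. The count therefore says little on how firm the differences are. Over these alternatives Wnt6 ran from 1.02 to 1.87, Bmp7 from 1.09 to 1.37 and Wnt16 from 0.59 to 0.67. Bmp6 dropped under 1.5-fold with spike-in scaling (0.53), quantile normalisation (0.55) and the added normexp setting (0.55). Without the uneven rows, 15 of 26 measured members were higher on the female array, in place of 25 of 38. With no filter on dim probes, 7 members were at least 1.5-fold higher on the female array and 2 on the male array, where the shares over all 26328 genes were 4.56% and 3.33%. Spike-in scaling moved the median of all genes to −0.067, with 20 members and 18 ligands above 0, and 25 members and 21 ligands above that median.

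Normexp on all spots moved the median of all genes to −0.55. On the male array 2 spots had a local background of up to 22727, where the highest on the female array was 98. Under it no member was higher on the female array (0 members, 0 ligands), 0 were at least 1.5-fold higher there and 26 were on the male array, beside 0.232% and 48.8% of all genes. Above that setting's median of all genes lay 11 of 38 members and 6 of 28 ligands. The ligand median was −1.38 and the receptor median −0.53. Wnt6 was −1.65, Bmp6 −1.29, Bmp7 −0.63 and Wnt16 −0.34. The list medians were −0.37 for Wnt co-receptors, −1.04 for secretion and modulators, −0.22 for intracellular genes, −1.02 for feedback and targets, −1.18 for other BMP receptors, −1.41 for antagonists, −0.99 for Smads, −1.05 for BMP targets and −1.35 for related ligands. With those 2 spots left out of the fit (chosen after seeing the data), the ligand median was 0.19, feedback and targets 0.14, other BMP receptors 0.054 and BMP targets 0.045, with the median of all genes at 0.050, so the last 2 lists lay about at that median.

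No paired analysis was possible because each pool has 1 array, and there was no replicate to leave out. For the dimmest genes, Wnt6 on the male array among them, signal near background limits the size of a ratio.

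Small list medians turned sign in more places. Smads turned to 0.019 in the added normexp setting, 0.029 without the uneven rows and 0.0077 with the brightest probe. Wnt secretion and modulators turned to 0.041 in the added normexp setting and to 0.052 without the uneven rows and without the dim filter. Spike-in scaling turned Wnt co-receptors (−0.019), intracellular genes (−0.020), feedback and targets (−0.030) and BMP antagonists and modulators (−0.0068). Among marker lists, normexp on all spots gave medians of 0.031 for meninges, −1.68 for choroid plexus, −1.93 for blood and −1.33 for pituitary, and the added setting −0.30 for blood and −0.18 for pituitary. Without the uneven rows the meningeal median was 0.72 and the pituitary median −1.04, and with no dim filter the latter was −0.15.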
